A study of Danio rerio with 16 samples.

Results

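The genes described here encode proteins that bind RNA, and most of them act in splicing. They were chosen by symbol, as the array probe sets annotated with a single gene of the SR proteins (srsf), the hnRNPs, the SF3 complexes, the snRNP proteins (snrp), the PRPF, RBM and LSm proteins, U2AF, the DEAD and DEAH box helicases (ddx, dhx), the CELF and ELAVL proteins and the paraspeckle protein pspc1. Each gene was represented by its probe set of highest mean, which gave 96 genes out of 4922 on the deposited table. They were measured by 122 probe sets, and 19 of the 96 genes had more than 1. All 96 were in the table after the authors' filter on expression, and none was dropped before testing. A splicing or RNA binding gene that this filter removed was not analysed here.

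Introns are removed by the spliceosome, an assembly of small nuclear RNAs and proteins built anew on each intron. U2AF and the SF3 proteins mark its 3′ end and branch point, Sm and LSm rings hold the small nuclear RNAs, and DEAD and DEAH box helicases drive the rearrangements. SR proteins and hnRNPs bind the transcript and favor or repress nearby splice sites, often with opposite effects. Vertebrate brain is known for abundant alternative splicing, and CELF and ELAVL proteins are among its neuronal regulators.

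Whole brains of adult zebrafish aged 4 to 6 months were pooled by sex, 2 to 5 fish to a pool, and 10 µg of total RNA from each of 16 pools was hybridized to an Affymetrix array. By the deposited labels there were 2 male and 2 female pools of each of 4 strains, TM1 and SH with a domesticated history and Nadia and Gaighatta with a wild one. By the study's methods, TM1 descends from pet store fish and carries a GFP transgene under a β-actin promoter, SH (Scientific Hatcheries) came from a commercial breeder, and the wild strains came from India and had been bred in captivity for far fewer generations. All fish were reared in 1 facility and had passed through a behavioral test. Values are log2 expression, so a difference of 1 is a 2-fold change, and the lists of 4 pool values below run male 1, male 2, female 1 and female 2. A gene is called where limma's adjusted p for a contrast is under 0.05, adjusted over all 7922 probe sets tested. The study also removed probe sets whose probe signals pointed to sequence differences among strains, as these can confound comparisons of expression. That removal was not applied here to any gene, and the part of such differences in the strain calls was not tested. The 4 pools per strain limit the precision of each strain mean, and in whole brain, fewer cells of a type and less RNA per cell cannot be told apart.

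Strain names are the deposited labels throughout, and they are in doubt. A probe set for GFP, the transgene that the methods give to TM1, read 8.58 to 10.46 in the 4 arrays labelled Gaighatta and 2.80 to 3.36 in the other 12. The 16 arrays could be matched, within 0.0001 over 1645 probe sets, to the study's own table, where the strain name differed from the label in 16 of 16 and the sex in 0. Arrays labelled TM1, SH, Nadia and Gaighatta stand there as Gaighatta, Nadia, SH and TM1. The GFP signal and those names both place TM1 at the arrays labelled Gaighatta. The sets of pools compared are unaffected, but the side called domesticated by label is the wild one by those names. Every strain name and every direction by domestication history below therefore holds for the labels only. Brain markers were clearly present. The 6 neuron markers measured had pool averages of 9.55 to 10.05 and the 12 of radial glia 9.12 to 9.67, with array medians of 6.08 to 6.20. Pools of 1 strain correlated across probe sets at r = 0.967 to 0.988 and pools of different strains at 0.936 to 0.980, which are correlations across genes and not across replicates.

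Among strains, 33 of the 96 genes were called in at least 1 of the 6 strain pairs. That is 34.4%, beside 32.9% of all 4922 genes. The largest difference between any pair of strain means had a median of 0.30 for the splicing and RNA binding genes and 0.30 for all genes. A difference of at least 1 was found for 2 of the 96 (2.08%), hnrnpa0a and rbm6, and for 5.51% of all genes. Differences of 0.5 or more were found for 17 (17.7%) and for 20.5% of all genes. As a class these genes were called about as often as the rest of the measured transcriptome, and the description below is of single genes within it. The counts by family below are small, and each stands beside the same 32.9% of all genes.

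**Figure D1:**
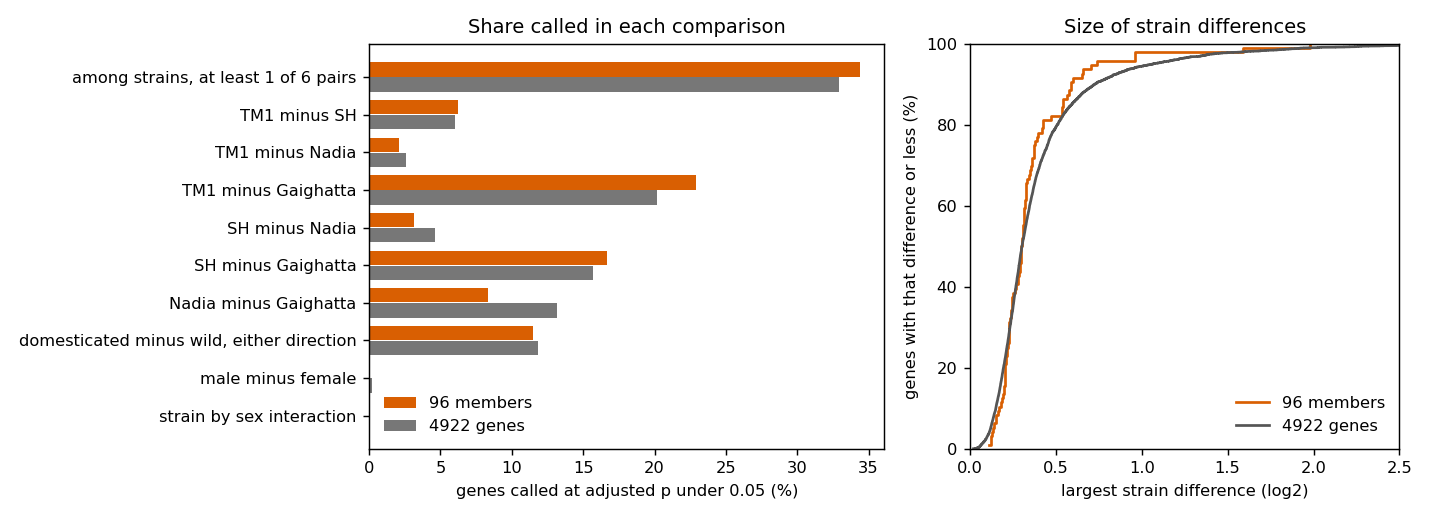
Left, the percentage of the 96 splicing and RNA binding genes (orange) and of all 4922 genes (grey) called at an adjusted p under 0.05 in each comparison. Right, the cumulative percentage of genes by their largest strain difference (log2 axis cut at 2.5); both curves reach their midpoint at 0.30, and the 33 called genes are 34.4% of the members against 32.9% of all genes.

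By strain pair, 22 of the 96 genes were called between TM1 and Gaighatta (22.9%; background 20.2%), 16 between SH and Gaighatta (16.7%; 15.7%) and 8 between Nadia and Gaighatta (8.33%; 13.2%). The pairs without Gaighatta had 6 between TM1 and SH (6.25%; 6.03%), 3 between SH and Nadia (3.12%; 4.63%) and 2 between TM1 and Nadia (2.08%; 2.58%). Between TM1 and Gaighatta 10 were higher and 12 lower in TM1, between SH and Gaighatta 11 were higher and 5 lower in SH, and between Nadia and Gaighatta 5 were higher and 3 lower in Nadia. Over all genes the same pairs had 409 higher and 584 lower in TM1, 378 higher and 394 lower in SH, and 309 higher and 340 lower in Nadia. Between TM1 and SH, 1 was higher and 5 were lower in TM1, beside 107 higher and 190 lower over all genes. The 2 called between TM1 and Nadia, hnrnpa0a and rbm45, were lower in TM1 (45 higher and 82 lower over all genes), and of the 3 between SH and Nadia, u2af2b was higher and srsf2b and rbm12bb were lower in SH (113 higher and 115 lower over all genes). Pairs that name a strain share its 4 pools, so these counts are not independent. The small counts moved with single pools: between TM1 and SH from 1 without TM1 female 2, and also 1 without SH female 2, to 8, and between SH and Nadia from 0 without SH female 2 to 6 without TM1 male 1.

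Gaighatta was the highest or lowest strain for 29 of the 33 called genes (87.9%), and for 81.4% of all called genes. It was highest for 13 and lowest for 16, and over all 1621 called genes highest for 717 and lowest for 602. TM1 was highest for 5 and lowest for 12 (308 and 488 over all called genes). SH was highest for 11 and lowest for 3 (363 and 294), and Nadia highest for 4 and lowest for 2 (233 and 237). A strain that differed from each of the other 3 in the same direction was found for 4 of the 33 called genes (12.1%), and for 342 of the 1621 called among all genes (21.1%). The 4 were rbm6 and lsm12a, lower in Gaighatta, srsf6b, higher in Gaighatta, and srsf2b, lower in SH. With the Gaighatta arrays left out, 3 of the 96 genes were called among the other strains (3.12%), hnrnpa0a, hnrnpl and rbm12bb, beside 7.5% of all genes in a fit that also had 4 fewer arrays.

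**Figure D2:**
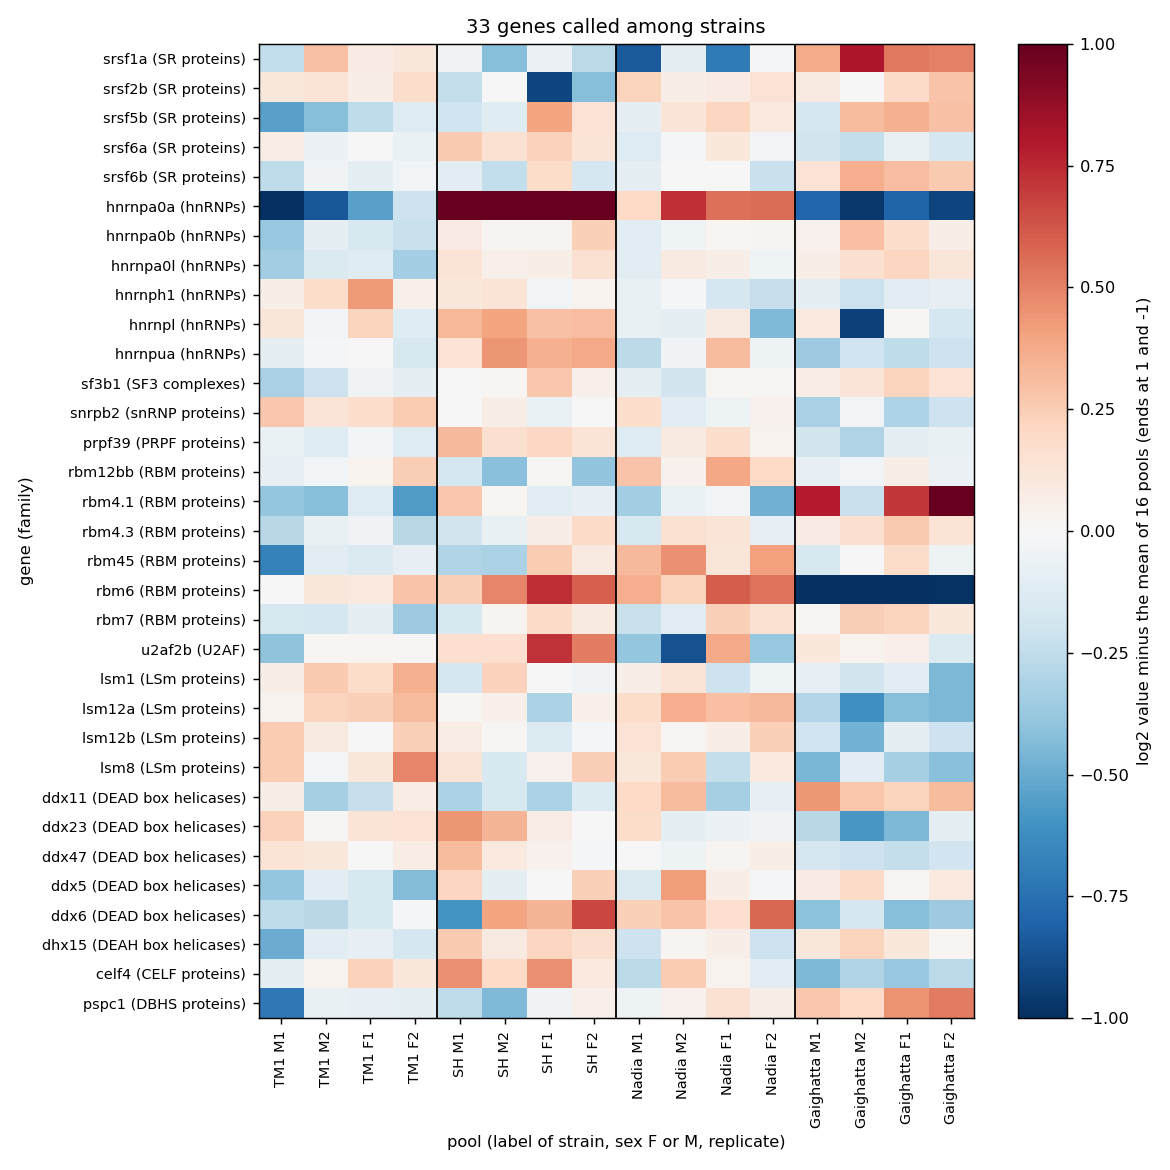
The 33 called genes (rows, grouped by family) in the 16 pools (columns, by strain label and then sex). Color is the log2 value minus the gene's mean over the 16 pools, with the scale ending at 1 and -1. The genes rbm6 and hnrnpa0a are off the end of the scale in several pools. Gaighatta is an extreme for 29 of the 33 genes (87.9%, beside 81.4% of all called genes).

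Of the 10 SR proteins, which carry arginine-serine repeats and mostly promote the use of the exons they bind, 5 were called among strains. The largest difference was that of srsf1a, a counterpart of the mammalian SRSF1. It read 7.95, 8.49, 8.28 and 8.31 in TM1 and 8.17, 7.78, 8.14 and 7.93 in SH. In Nadia it read 7.36, 8.11, 7.50 and 8.19, and in Gaighatta 8.57, 9.01, 8.73 and 8.71. All 4 Gaighatta pools were above every other pool of the series, while the Nadia pools were split into a lower and a higher pair that did not follow sex. Nadia averaged 7.79 ± 0.42 and Gaighatta 8.75 ± 0.18 (SD, n = 4 pools each), a difference of -0.96 (SE 0.18, limma adjusted p = 0.00146), or 1.95-fold. Its paralog srsf1b was not called, with a largest difference of -0.31 (adjusted p = 0.175).

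The other SR proteins differed less, and not in one pattern. srsf2b, which like mammalian SRSF2 belongs to the first SR proteins described, was low in SH, at 6.83, 7.07, 6.15 and 6.64, against 7.15, 7.07, 7.26 and 7.35 in Gaighatta. The SH pools were spread widely, and SH male 2 came up to the level of the lowest Gaighatta pool without overlap. The 3 differences of SH from TM1, Nadia and Gaighatta were 0.52 (TM1 minus SH), -0.52 (SH minus Nadia) and -0.54 (SH minus Gaighatta), and each was called. srsf5b was lower in TM1, at 8.65, 8.77, 8.94 and 9.06, than in Gaighatta, at 9.02, 9.51, 9.54 and 9.48 (-0.54, SE 0.14, limma adjusted p = 0.0152), although the lowest Gaighatta pool was below the highest of TM1. Its paralog srsf5a, the SR gene of highest mean, differed by at most 0.12 (adjusted p = 0.443), and that value was 0.015 without Gaighatta male 1.

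srsf6a and srsf6b, a pair of paralogs, were both called, with the extremes in Gaighatta at opposite ends. srsf6a averaged 8.50 ± 0.06 in SH and 8.13 ± 0.07 in Gaighatta (0.36, SE 0.08), and Gaighatta was its lowest strain. srsf6b averaged 8.04 ± 0.11 in TM1 and 8.41 ± 0.09 in Gaighatta (-0.37, SE 0.10), and Gaighatta was its highest strain. The difference between the paralogs was not tested. For srsf6b the lowest Gaighatta pool was 8.29, which was under the highest SH pool at 8.32 and above all pools of TM1 and Nadia.

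The hnRNPs coat nascent transcripts and often silence exons. Of 13 measured, 6 were called, and hnrnpa0a had the largest strain difference of all 96 genes. It read 7.46, 8.02, 8.32 and 8.66 in TM1 and 9.87, 9.91, 10.13 and 9.97 in SH. In Nadia it read 9.06, 9.59, 9.41 and 9.42, and in Gaighatta 8.07, 7.90, 8.06 and 7.94. SH and Nadia formed a high pair with no overlap with TM1 and Gaighatta, and every SH pool was above every Nadia pool. SH averaged 9.97 ± 0.12 and Gaighatta 7.99 ± 0.08 (SD, n = 4 pools each), a difference of 1.98 (SE 0.18, limma adjusted p = 1.41e-06), or 3.94-fold. It was called in 4 of the 6 pairs, the exceptions being TM1 minus Gaighatta (0.12, adjusted p = 0.668) and SH minus Nadia (0.60, adjusted p = 0.0702).

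This difference rests on 1 of the 3 probe sets of hnrnpa0a. The others, with means of 8.71 and 8.01, differed between SH and Gaighatta by 0.23 (adjusted p = 0.28) and 0.03 (adjusted p = 0.906), and neither was called in any pair. The study's filter on probes with sequence differences between strains was not applied here, to this or any other gene. A different picture was given by the paralog hnrnpa0b, whose 4 probe sets all had TM1 as the lowest strain and of which 3 were called. Its probe set of highest mean averaged 9.44 ± 0.12 in TM1 and 9.80 ± 0.12 in Gaighatta (-0.36, SE 0.09, limma adjusted p = 0.00952), and the called further ones differed by -0.45 and -0.61 in the same pair. The related hnrnpa0l was also lowest in TM1, at 9.99, 10.19, 10.22 and 9.99, against 10.40, 10.50, 10.55 and 10.46 in Gaighatta, with no overlap (-0.38, SE 0.08).

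**Figure D3:**
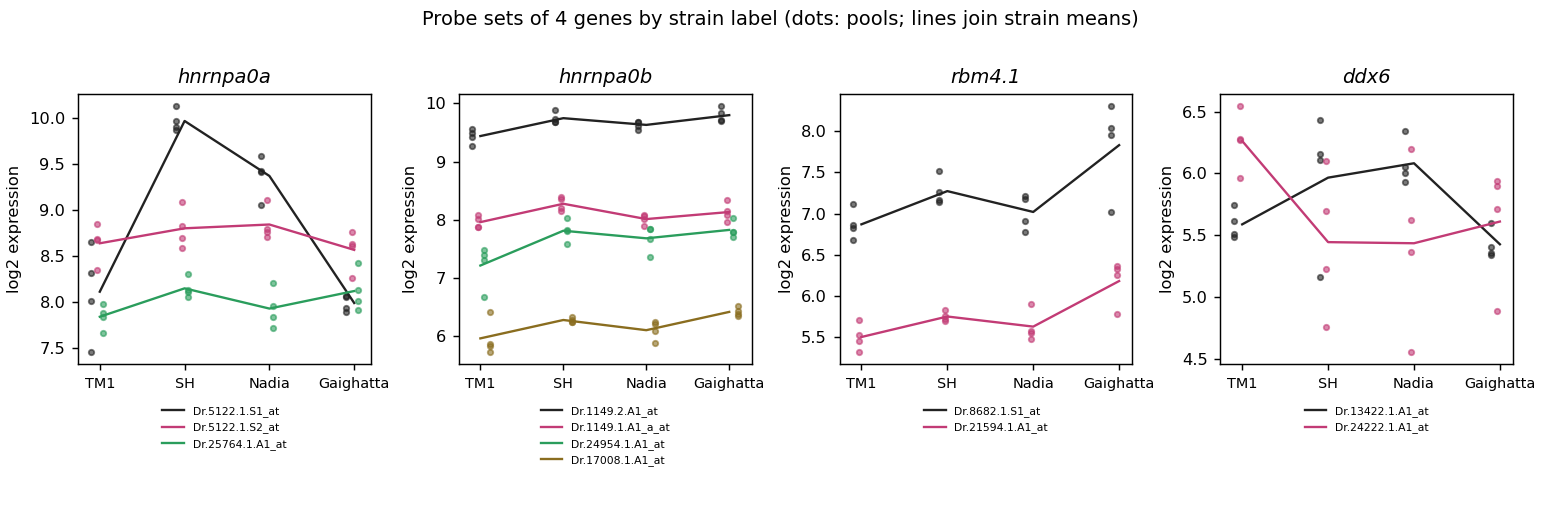
Log2 expression of every probe set of hnrnpa0a, hnrnpa0b, rbm4.1 and ddx6 by strain label; dots are pools (n = 4 per strain) and lines join strain means. The SH to Gaighatta difference of 1.98 in hnrnpa0a is seen in 1 of 3 probe sets, all 4 probe sets of hnrnpa0b and both of rbm4.1 run the same way, and the 2 of ddx6 run in opposite directions between Nadia and Gaighatta.

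Among the other hnRNPs, hnrnpua, a counterpart of the nuclear scaffold protein hnRNP U, was highest in SH. It read 7.24, 7.54, 7.45 and 7.48 in SH and 6.73, 6.89, 6.84 and 6.89 in Gaighatta, with no overlap (0.59, SE 0.11, limma adjusted p = 0.00142). hnrnpl, whose mammalian counterpart binds CA repeats, read 7.68, 7.74, 7.64 and 7.66 in SH and 7.44, 6.41, 7.36 and 7.17 in Gaighatta. Its difference of 0.59 (adjusted p = 0.0301) was 0.36 without Gaighatta male 2, the lowest of the 16 pools, and was not called. The call was also lost without Gaighatta female 2 and without each of the 4 SH pools, at differences of 0.56 to 0.61. hnrnph1, which binds runs of G, was higher in TM1 than in Gaighatta by 0.30 (SE 0.09, adjusted p = 0.0295), the smallest called difference of the 33 genes. The 7 not called included hnrnpaba, the hnRNP of highest mean, at -0.22 between TM1 and Gaighatta (limma adjusted p = 0.142, and -0.11 without TM1 male 1). Also not called was hnrnpub, the paralog of hnrnpua, at -0.30 between TM1 and SH (limma adjusted p = 0.138). Its further probe sets had the opposite sign in that pair (0.20 and 0.11) and were not called.

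The RBM proteins share only the RNA recognition motif and have varied roles. Of 15, 6 were called. rbm6, a nuclear protein known in mammals as a regulator of alternative splicing, set Gaighatta apart from all other strains. It read 6.53, 6.64, 6.62 and 6.81 in TM1 and 6.76, 7.01, 7.26 and 7.12 in SH. In Nadia it read 6.89, 6.75, 7.13 and 7.07, and in Gaighatta 5.41, 5.33, 5.52 and 5.54. The highest Gaighatta pool was about 1 unit below the lowest pool of any other strain. SH averaged 7.04 ± 0.21 and Gaighatta 5.45 ± 0.10, a difference of 1.59 (SE 0.11, limma adjusted p = 9.57e-08), or 3.01-fold, and with each pool left out in turn it lay between 1.52 and 1.68. rbm6 had a single probe set.

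rbm4.1, a counterpart of the splicing regulator RBM4, was highest in Gaighatta. It read 6.86, 6.82, 7.12 and 6.68 in TM1, 7.52, 7.27, 7.14 and 7.16 in SH, 6.91, 7.18, 7.22 and 6.77 in Nadia and 8.03, 7.02, 7.96 and 8.31 in Gaighatta. In Gaighatta, 3 pools were above all others and male 2 was within the range of the other strains. The difference between TM1 and Gaighatta was -0.96 (SE 0.21, limma adjusted p = 0.00377), and -1.23 without Gaighatta male 2. Its second probe set differed by -0.68 in the same pair (adjusted p = 0.0017) and correlated with the first at r = 0.925 over the 16 pools. rbm4.3, a neighbor in the same family, was called in the same pair with the same sign (-0.33, adjusted p = 0.0336), and rbm4.2 was not (-0.19, adjusted p = 0.196).

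The remaining called RBM genes were smaller in effect. rbm45, an RNA binding protein of the developing nervous system, read 6.02, 6.59, 6.55 and 6.61 in TM1 and 7.02, 7.15, 6.82 and 7.11 in Nadia, with no overlap. Its difference of -0.58 (SE 0.15, adjusted p = 0.0454) lost its call in 11 of the 16 fits that left out 1 pool, and TM1 male 1 was the lowest of the 16 pools. rbm7, a subunit of the complex that targets nuclear RNA to the exosome, was lower in TM1 than in Gaighatta, with a difference of -0.34 (adjusted p = 0.0379). rbm12bb averaged 5.86 ± 0.20 in SH and 6.33 ± 0.15 in Nadia (-0.47, SE 0.11, adjusted p = 0.0166). rbm39a, a U2AF-related coactivator and the RBM gene of highest mean, was not called (-0.29 between TM1 and Gaighatta, adjusted p = 0.0915).

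LSm proteins form rings that hold U6 RNA in the nucleus or start decapping of mRNA in the cytoplasm, and some larger members have other roles. Of 7, 4 were called, beside 32.9% of all genes. All 4 were lowest in Gaighatta, as were 602 of the 1621 called among all genes. lsm12a read 7.06, 7.24, 7.25 and 7.33 in TM1 and 7.04, 7.07, 6.70 and 7.07 in SH. In Nadia it read 7.20, 7.38, 7.32 and 7.34, and in Gaighatta 6.72, 6.41, 6.59 and 6.57. Gaighatta overlapped only with SH, through SH female 1, which was the lowest pool outside Gaighatta. Nadia averaged 7.31 ± 0.08 and Gaighatta 6.57 ± 0.13, a difference of 0.74 (SE 0.10, limma adjusted p = 0.000107).

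The paralog lsm12b differed in the same direction by less, at 7.84 ± 0.12 in TM1 and 7.45 ± 0.16 in Gaighatta (0.39, adjusted p = 0.00885), though its second probe set differed by -0.03 (adjusted p = 0.893). lsm8, the subunit that sets the nuclear U6 ring apart from the cytoplasmic one, averaged 7.41 ± 0.22 in TM1 and 6.87 ± 0.16 in Gaighatta (0.54, SE 0.13, limma adjusted p = 0.00803). lsm1, the corresponding subunit of the cytoplasmic ring, averaged 5.74 ± 0.13 in TM1 and 5.32 ± 0.17 in Gaighatta (0.42, adjusted p = 0.0142). lsm6, which belongs to both rings, was not called (-0.28 between TM1 and Nadia, adjusted p = 0.213), and that value was -0.16 without TM1 male 1.

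Of the 6 SF3 proteins, which bind the branch point as part of U2, only sf3b1 was called, at 9.87, 9.98, 10.16 and 10.10 in TM1 and 10.26, 10.32, 10.41 and 10.34 in Gaighatta. Every Gaighatta pool was above every TM1 pool (-0.31, SE 0.09, limma adjusted p = 0.0251), but the call was lost in 4 of the 16 fits that left out 1 pool, and its second probe set differed by -0.14 and was not called (adjusted p = 0.406). Of the 6 snRNP proteins, only snrpb2, a U2 protein, was called, at 6.55 ± 0.07 in TM1 and 6.12 ± 0.14 in Gaighatta (0.42, SE 0.09, limma adjusted p = 0.00327). The Sm ring subunits measured (snrpb, snrpd3, snrpd3l, snrpe and snrpg) had largest differences between -0.24 and 0.33, and none was called. The snrpe value was closest to the threshold (adjusted p = 0.0505). Of the 4 PRPF proteins, prpf39, a homolog of a yeast U1 snRNP protein, was called (7.64 ± 0.09 in SH and 7.27 ± 0.11 in Gaighatta, a difference of 0.37, adjusted p = 0.0071). prpf8, the central protein of the catalytic core, differed by at most 0.20 (adjusted p = 0.224).

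U2AF recognizes the 3′ splice site. Its large subunit gene u2af2b read 7.19, 7.19, 7.74 and 7.53 in SH and 6.64, 6.15, 7.40 and 6.64 in Nadia. In SH the male pools were below the female ones, while the Nadia pools were spread over more than 1 unit, with Nadia female 1 inside the SH range. The difference of 0.71 (SE 0.20) passed narrowly (limma adjusted p = 0.0475), and the call was kept in 2 of the 16 fits that left out 1 pool. u2af1, the small subunit, was not called (0.17, adjusted p = 0.372).

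The DEAD box family was the largest, with 23 genes, of which 5 were called. Its members unwind or clamp RNA in many processes, so the family name does not mark a splicing role. ddx23, a helicase of the U5 particle, averaged 4.51 ± 0.21 in SH and 3.95 ± 0.21 in Gaighatta (0.56, SE 0.12, limma adjusted p = 0.00385). Its signal was low, below the array medians of 6.08 to 6.20 in every pool. ddx5, a splicing and transcription cofactor, was lower in TM1, at 9.20 ± 0.16, than in Gaighatta, at 9.57 ± 0.07 (-0.37, adjusted p = 0.0379), and its call was lost in 6 of the 16 fits that left out 1 pool. ddx47, which acts in ribosomal RNA processing, averaged 5.88 ± 0.15 in SH and 5.56 ± 0.03 in Gaighatta (0.31, adjusted p = 0.014).

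ddx11, in spite of its name a DNA helicase of chromosome cohesion, was higher in Gaighatta than in TM1 and SH. It read 5.09, 5.25, 5.09 and 5.27 in SH and 5.84, 5.68, 5.63 and 5.72 in Gaighatta, with no overlap (-0.54, SE 0.13, limma adjusted p = 0.00902). ddx6, which holds mRNAs silent in P-bodies, read 6.01, 6.05, 5.93 and 6.34 in Nadia and 5.36, 5.60, 5.34 and 5.41 in Gaighatta, also with no overlap (0.66, SE 0.19, limma adjusted p = 0.0314), and this call was lost in 6 of the 16 fits that left out 1 pool. SH male 1 was the lowest of all 16 pools for ddx6, although the other SH pools were high. The second ddx6 probe set ran the other way in this pair, at -0.18 (adjusted p = 0.767), and correlated with the first at r = -0.48 over the 16 pools. ddx17, the paralog of ddx5, was not called by its main probe set (-0.33 between TM1 and SH, adjusted p = 0.0547), while its second one was, at -0.60 (adjusted p = 0.0384).

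Of the 3 DEAH box helicases, dhx15, which takes apart spliceosomes after use, was called. It read 7.90, 8.30, 8.31 and 8.22 in TM1 and 8.66, 8.49, 8.62 and 8.56 in SH, with no overlap (-0.40, SE 0.10, limma adjusted p = 0.0281). The call in this pair was lost in 5 of the 16 fits that left out 1 pool, at -0.30 without TM1 male 1, the lowest pool, -0.41 without TM1 female 2, -0.37 without SH male 1, -0.39 without SH female 1 and -0.40 without SH female 2. dhx16, which acts at the first catalytic step, was not called (0.17, adjusted p = 0.434).

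**Figure D4:**
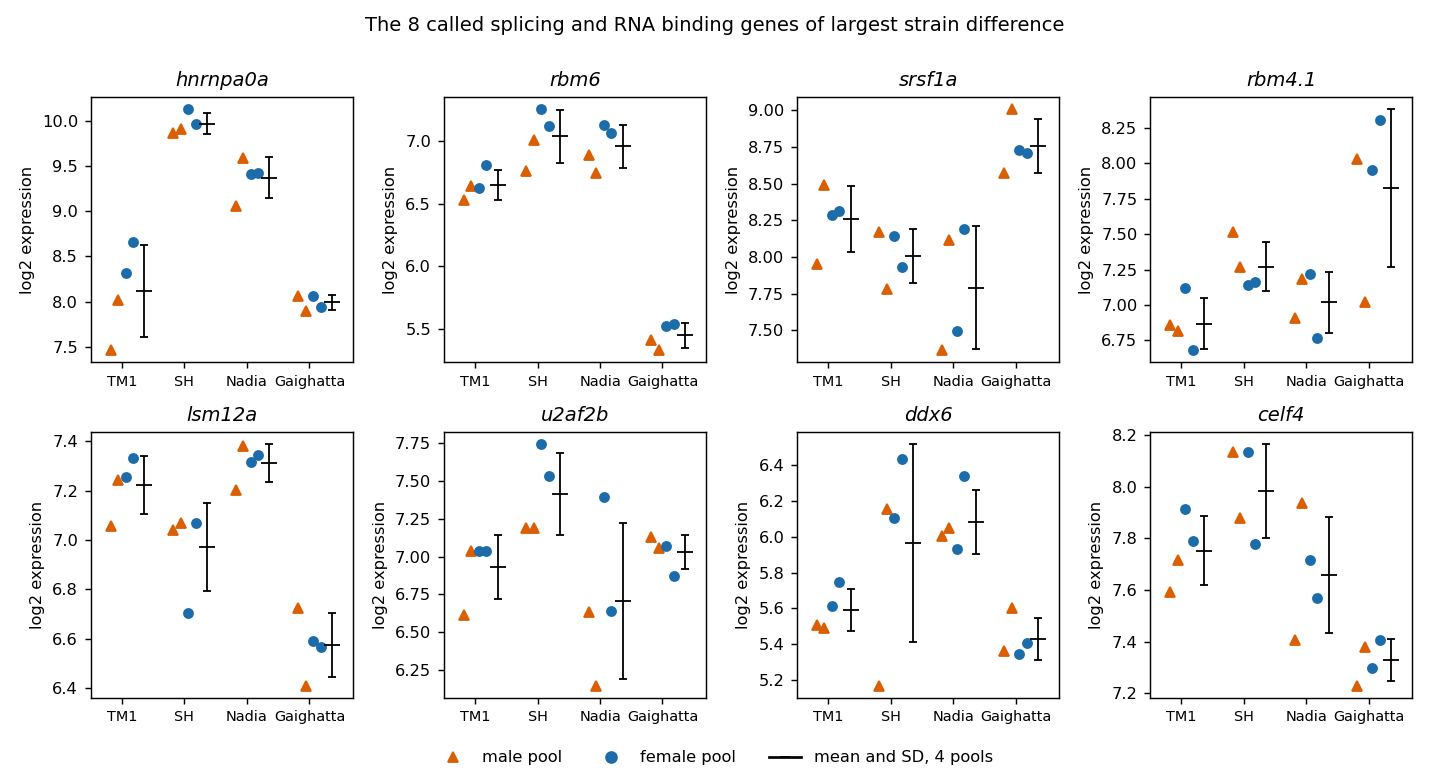
Log2 expression in each pool of the 8 called genes with the largest strain differences, by strain label (triangles, male pools; circles, female pools; black bars, mean and SD of 4 pools). Gaighatta lies apart from all other strains for rbm6 and above them for srsf1a, hnrnpa0a is high in SH and Nadia, and the Nadia pools of u2af2b and the SH pools of ddx6 are widely spread.

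Among the regulators known from neurons, celf4 was called. CELF4 binds many synaptic mRNAs in mouse brain. The gene read 7.59, 7.72, 7.91 and 7.79 in TM1 and 8.14, 7.88, 8.14 and 7.78 in SH. In Nadia it read 7.41, 7.94, 7.72 and 7.57, and in Gaighatta 7.23, 7.38, 7.30 and 7.41. Gaighatta was below all TM1 and SH pools and reached the level of the lowest Nadia pool (SH minus Gaighatta 0.65, SE 0.12, limma adjusted p = 0.00112). celf2, the CELF gene of highest mean, differed by -0.29 between SH and Gaighatta (adjusted p = 0.18), and by -0.16 without SH female 1.

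None of the 3 ELAVL genes was called. elavl3, whose protein HuC is a standard marker of neurons, averaged 9.65 ± 0.34 in TM1, 9.81 ± 0.06 in SH, 9.70 ± 0.16 in Nadia and 9.95 ± 0.06 in Gaighatta, and its largest difference was -0.30 (limma adjusted p = 0.12). Without TM1 male 1, its lowest pool, that difference was -0.15, and without TM1 female 2 it was -0.42 and was called. None of its 4 probe sets was called. The 6 neuron markers measured had strain averages in the same order at the ends, 9.62 in TM1, 9.81 in SH, 9.83 in Nadia and 9.95 in Gaighatta. Of the 6, gap43 did not have this order, being lowest in Gaighatta (9.78, against 9.84 in TM1). Among strains 4 of the 6 were called, beside 32.9% of all genes. The order at the ends was not particular to neurons. Radial glia markers (9.35 in TM1 and 9.57 in Gaighatta) and myelin markers (8.05 and 8.26) were also lowest in TM1 and highest in Gaighatta. Microglia and leukocyte, red blood cell, meningeal, muscle, eye and pituitary markers were not. The part of neuron content in the elavl3 values was not tested. pspc1, a paraspeckle protein, read 3.76, 4.40, 4.39 and 4.38 in TM1 and 4.75, 4.67, 4.92 and 4.99 in Gaighatta, with no overlap (-0.60, SE 0.14, limma adjusted p = 0.00718), and -0.44 without TM1 male 1. The pspc1 signal was low, with a mean of 4.47 beside array medians of 6.08 to 6.20.

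Where a gene had several probe sets, they often differed in what they showed. Of 26 further probe sets, 20 had the sign of the main one in the pair where that was largest. For the 6 called genes with further probe sets, 3 of 9 were called, 2 of hnrnpa0b and 1 of rbm4.1. For genes not called, 1 of 17 was called, that of ddx17. Annotation of a probe set to a gene is that of the array's design, and which transcript each one reads was not examined.

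Of the 33 calls among strains, 21 were made again in each of the 16 fits that left out 1 pool. The other 12 were lost at least once, u2af2b in all but 2 fits and rbm45 in all but 5. Matching shares over all genes were not computed. Without Gaighatta female 2, 10 were lost (ddx5, ddx6, hnrnph1, hnrnpl, lsm1, rbm4.3, rbm45, rbm7, sf3b1 and u2af2b), and 8 of these without Gaighatta female 1. dhx15 was called in no pair without TM1 male 1, and rbm12bb in none without SH female 2 or SH male 2.

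Single pools also stood apart. TM1 male 1 had the lowest mean over the 96 genes, 6.94 against 7.04 to 7.15 in the other 15 pools, and it was the lowest of the 16 pools for 31 of them (32.3%). It was also the lowest over all 4922 genes, with a mean of 6.34 against 6.39 to 6.44 in the other pools, and the lowest pool for 24% of them. The same pool had the highest mean of 10 microglia and leukocyte markers, at 7.78. TM1 male 2 was next at 7.53, and the remaining pools had 6.50 to 6.98. The mean of TM1 male 2 over the 96 genes was 7.04. TM1 male 1 had the lowest mean of 12 radial glia markers, at 9.12 against 9.40 to 9.67. It was also lowest for the neuron (9.55 against 9.57 to 10.05), myelin (7.81 against 8.07 to 8.34) and meningeal (5.83 against 5.90 to 6.70) lists. For the red blood cell, muscle, eye and pituitary lists it was not the lowest. The part of these cell types in the low values of this pool was not tested.

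By domestication history, 11 of the 96 genes were called between the 8 pools labelled domesticated and the 8 labelled wild (11.5%; background 11.8%), 8 higher and 3 lower in domesticated pools. Over all genes 266 were higher and 317 lower. All 11 had overlapping pool ranges, and 10 were among the 33 called among strains, the exception being ddx42. Gaighatta was the highest or lowest strain for 10 of the 11, and for 81.4% of all genes called among strains. Both strains of a side lay beyond both of the other for 8 of them. Shares of these counts over all genes called by domestication history were not computed.

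rbm6 had the largest difference. The lowest, median and highest pools read 6.53, 6.79 and 7.26 in the domesticated group and 5.33, 6.14 and 7.13 in the wild one (0.64, SE 0.08, limma adjusted p = 6.62e-05). The wild group held both the lowest values, from Gaighatta, and values from Nadia as high as those of SH. With Gaighatta left out, the domesticated strains were lower than Nadia by 0.11 on the log2 scale, the opposite sign. pspc1 read 3.76, 4.39 and 4.52 in domesticated and 4.42, 4.65 and 4.99 in wild pools (-0.41, SE 0.10, adjusted p = 0.0145). The groups overlapped narrowly, between the lowest wild pools and the highest domesticated ones.

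celf4 followed at 7.59, 7.83 and 8.14 in domesticated pools and 7.23, 7.41 and 7.94 in wild ones (0.38, SE 0.08, adjusted p = 0.00756). ddx23 read 4.30, 4.44 and 4.74 in domesticated and 3.72, 4.20 and 4.48 in wild pools (0.35, SE 0.08, adjusted p = 0.0139). For both, the wild median was below the lowest domesticated pool, and the overlap came from Nadia. ddx11 differed by -0.34 (adjusted p = 0.0257) and hnrnpua by 0.26 (adjusted p = 0.0342), and the other 5 (hnrnph1, snrpb2, ddx47, srsf6a and ddx42) by at most 0.24 in size. The call of hnrnpua was lost in 10 of the 16 fits that left out 1 pool, and that of ddx11 without TM1 male 2 or Nadia male 1. Of the genes called here, pspc1, ddx23 and ddx11 read below every array median (6.08 to 6.20) in all pools.

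These calls take pools as replicates, and only 2 strains stand on each side. With strain as a random block none of the 96 genes was called by limma (7 at an unadjusted p under 0.05), with the 4 strain means as the data none (1 at an unadjusted p under 0.05), and without Gaighatta none (10 at an unadjusted p under 0.05). Over all 4922 genes these settings called only 10, 0 and 140. Shares over all genes for the unadjusted counts were not computed. Leaving out 1 pool gave 5 to 12 calls, with 5 without Nadia female 2 and 6 without Nadia male 1, and shares over all genes were not computed for these either.

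**Figure D5:**
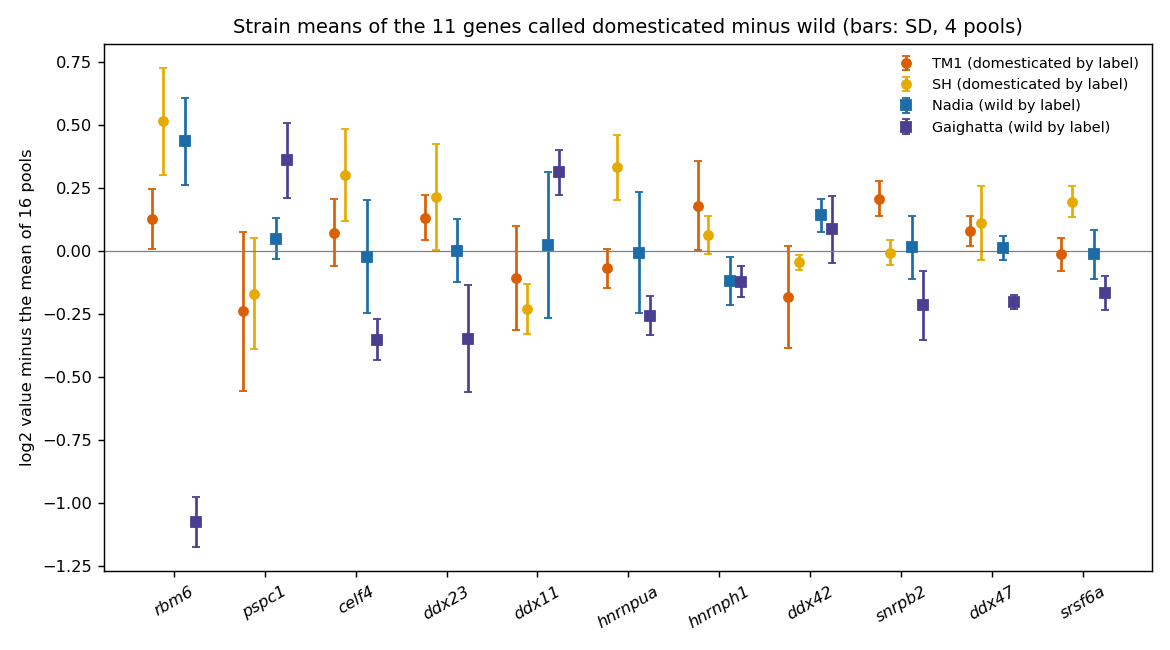
Strain means (log2 value minus the gene's mean over 16 pools; bars, SD of 4 pools) of the 11 genes called between pools labelled domesticated (TM1 and SH, circles) and wild (Nadia and Gaighatta, squares). Gaighatta is the highest or lowest strain for 10 of the 11, and for rbm6 Nadia lies with SH. Over all genes called among strains, a differently chosen set, that share is 81.4%, and over all genes called by domestication history it was not computed.

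Between the sexes, none of the 96 genes was called by limma (background 0.183%), and none for an interaction of strain and sex (background 0.0813%). At an unadjusted p under 0.05 there were 13 genes for sex (13.5%, beside 12.1% of all genes) and 2 for the interaction (2.08%, beside 4.69%). Of the 13, 12 were lower in males, as were 56.9% of those over all genes. These counts moved with single pools, for sex from 5 without Gaighatta female 1 to 28 without TM1 male 2, and for the interaction from 0 without SH female 1 or Gaighatta female 2 to 5 without TM1 male 2. The smallest adjusted p was 0.249 for sex and 0.993 for the interaction. srsf5b had the lowest, median and highest values 8.65, 9.04 and 9.51 in male pools and 8.94, 9.37 and 9.58 in female pools (-0.28, SE 0.08, adjusted p = 0.249). For rbm6 they were 5.33, 6.70 and 7.01 in males and 5.52, 6.94 and 7.26 in females (-0.22, SE 0.06, adjusted p = 0.249). The sexes overlapped broadly for both. In all, 67 of the 96 differences were negative (69.8%, beside 54.6% over all genes), with a median of -0.05 beside -0.01 for all genes. The low pool TM1 male 1 is 1 of the 8 male pools, and its part in these shares was not tested. Without TM1 male 2, pspc1 was called as lower in males (-0.33), in a fit where TM1 male 1 was the only TM1 male pool. That pool read 3.76 for pspc1, against 4.38 to 4.40 in the other TM1 pools, and the gene's mean was low at 4.47.

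Other genes of the same processes were taken from a list of 178 splicing factors and RNA binding proteins outside the named families, of which 80 were measured. Of these, 31 (38.8%) were called among strains, beside the same background of 32.9%. By domestication history 3 were higher and 6 lower in domesticated pools, beside 266 higher and 317 lower over all genes. The largest differences were those of msi2b, a Musashi protein of neural progenitors, rbfox2, a neuronal and muscle splicing regulator, and magoh, a core subunit of the exon junction complex. Between Nadia and Gaighatta msi2b averaged 7.09 in Nadia and 8.15 in Gaighatta (-1.06, SE 0.17), and this pair was called. rbfox2 averaged 6.74 in Nadia and 5.70 in Gaighatta (1.04, SE 0.14), and magoh 7.03 in Nadia and 6.11 in Gaighatta (0.93, SE 0.26), both called in this pair.

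Marker genes of other cell types also varied between pools. The counts of markers called among strains are small, and each stands beside 32.9% of all genes. Called were 3 of 6 red blood cell, 5 of 10 microglia and leukocyte, 4 of 12 radial glia, 1 of 2 myelin and 2 of 5 eye markers. Of 10 meningeal and connective tissue markers 8 were called among strains, with pool averages of 5.83 to 6.12 in TM1, 6.50 to 6.70 in SH, 6.19 to 6.57 in Nadia and 5.93 to 6.36 in Gaighatta. Of 4 pituitary markers 3 were called, at 3.89 to 4.69 in TM1, 4.32 to 9.18 in SH, 4.33 to 8.27 in Nadia and 3.51 to 4.75 in Gaighatta. Muscle markers (1 of 10 called) ranged over 5.41 to 10.33 across pools. The meningeal, pituitary and muscle lists and the 6 red blood cell markers measured all had lower strain means in TM1 and Gaighatta than in SH and Nadia. Among the red blood cell markers, urod averaged 4.73 in Gaighatta and 5.94 to 6.09 elsewhere, while hbaa1 was highest in Gaighatta at 12.53. The Gaighatta pools spanned the whole range of the muscle list. Neuron, radial glia, myelin, microglia and leukocyte, and eye lists did not have this order. It was also seen in 2 of the 3 probe sets of hnrnpa0a, of which 1 was called. The part of these tissues in the differences above was not tested.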

How the data were processed

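Brain RNA pools were measured on Affymetrix Zebrafish arrays. The authors corrected, normalized and summarized the probes by RMA with the affy package (versions not given in the sources used here), filtered on expression, and deposited log2 values for 7958 probe sets. Their methods also name the removal of probe sets with an interquartile range under 0.5, but 7097 of the 7958 deposited lie under that value, so all were kept and the filter was an alternative. The authors then removed probe sets with signs of sequence differences between strains from their own tests, and these were kept here. The 36 control probe sets were left out, which left 7922. Of these 5639 carried 1 gene symbol, 54 several and 2229 none by the platform annotation, which can be old. All 96 members were found in a RefSeq gene table, and none was renamed.

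All 16 arrays entered a model of strain means (limma 3.58.1, R 4.3.3), with contrasts (first minus second) for 6 strain pairs and for domesticated minus wild. Sex and its interaction were tested in a factorial model. The eBayes variance was used, and each contrast had its own Benjamini-Hochberg adjustment over all probe sets, with a threshold of 0.05. Gene counts use 1 probe set of highest mean per gene. The members, lists and tests were chosen with earlier results of these data known. Named genes are the 15 largest strain differences, the 6 largest by domestication history, any sex or interaction calls, and the highest mean and largest difference in each of 13 families, with their further probe sets; other genes of these families were named after their values were seen. The code of the fits was also run on simulated data with independent noise and planted shifts. Those data had no pool effects shared between genes, so the run does not bear on single calls. Alternatives covered single pools, the replicate number, covariates, filters, scaling, the variance model, probe sets and the unit of replication. Replicate pools share a strain and a facility, so p-values measure only the spread between pools. The replicate numbers were not used as a pairing in the main fits, and a pairing of some pools was not excluded. The authors' own fold changes and p-values, in their supplementary tables, were not used, and no sequences are given.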

Additional observations from a re-analysis of the deposited data

Results flagged for a closer look

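Within the 28 genes named by rule, each strain's 4 pools were examined for a pool far from the others by Dixon's criterion, in 112 groups, and 9 groups had one. Chance gives about 1 in 20 groups. In 6 of the 9 it was TM1 male 1, which was below the other TM1 pools in each case, at 6.62 for u2af2b, 3.76 for pspc1, 6.02 for rbm45, 8.20 for prpf8, 8.12 for rbm39a and 7.64 for lsm6. The others were SH female 1 for lsm12a, below its group at 6.70, SH female 2 for lsm6, above its group at 8.33, and Nadia male 2 for celf2, below its group at 8.51. No difference of a sex effect between strains passed the threshold for any of the 96 genes.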

How the results depend on the processing

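The 4 arrays per strain limit all calls. Only probe sets with an interquartile range of at least 0.5 (854, with 5 of the 96 genes) left 5 genes called among strains, 1 for TM1 minus SH, 1 for TM1 minus Nadia, 3 for TM1 minus Gaighatta, 0 for SH minus Nadia, 4 for SH minus Gaighatta, 5 for Nadia minus Gaighatta and 1 for domesticated minus wild, by construction from fewer genes. A mean of at least 6 (70 of the 96 genes) gave 7 for domesticated minus wild. The genes pspc1, ddx23, ddx11 and ddx47, called in the main fit, had means under 6 and were not tested there. With sex as a covariate TM1 minus SH had 10, and with quantile normalization SH minus Nadia had 5, and the cause was not tested. Without Gaighatta, 3 were called among strains, 1 for TM1 minus SH, 1 for TM1 minus Nadia and 0 for domesticated minus wild (the last an alternative chosen after seeing the data), and rbm6 reversed to -0.11 for domesticated minus wild. Domesticated minus wild also had 0 with strain as a random block (10 of all 4922 genes) and 0 with 4 strain means (0 of all genes). Without Gaighatta it had 140 of all genes. The second probe set of ddx6 reversed to -0.18.

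Leaving out 1 pool gave 23 to 35 genes among strains, 1 to 8 for TM1 minus SH, 1 to 3 for TM1 minus Nadia, 0 to 6 for SH minus Nadia, 5 (without Nadia female 2) to 11 for Nadia minus Gaighatta, 5 to 12 for domesticated minus wild and 0 to 1 for male minus female. With the replicate number as a block 36 were called among strains. For these counts, and those above with filters, sex or scaling changed, shares over all genes were not computed. The deviations of same-numbered pools had 28 correlations between groups, from -0.29 to 0.307, with a median of 0.004 and 6 over 0.1. With 2 pools to a group, this check cannot exclude that some of the groups were paired. The block moved no count by over 1.5 times. Of the values of named genes under all alternatives, 681 counted as unchanged, 79 lost the call, 1 gained it and 2 called values reversed. A change of sign in a value that was not called counted as unchanged. An elavl3 probe set, for example, differed by 0.07 where the main one differed by -0.30. Centring the arrays or quantile normalization reversed no called value. The median TM1 minus Gaighatta difference over all 4922 genes was -0.04 as deposited, -0.02 after centring and -0.01 after quantile normalization.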
